A study of Mus musculus with 12 samples.

Results

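Interleukin 18 is a cytokine of the IL-1 family, and the genes described here are Il18 itself and the 2 chains of its receptor, Il18r1 and Il18rap. They were taken by gene symbol, and all 3 were found among the 547 genes of the deposited table. RNA came from the last stretch of the small intestine of 12 females. It was counted with a NanoString panel, in which colour-coded probe pairs are hybridised to each transcript and counted. The 4 groups of 3 mice were IL10_STAT and IL10_control, whose genotype label is IL10 (pups deficient in IL10, per the series design), and WT_STAT and WT_control, whose label is C57 (C57BL/6 pups). The inoculum was given to the mothers and not to the pups. It was cecal contents that were either perturbed by antibiotic, which the labels call STAT, or control. STAT here names the inoculum, not the transcription factors of that name. The age of the mice, their mothers, litters and cages, and the kind of Il10 allele are not stated in the labels. Mice of a group may share a mother or cage, and p-values measure the spread between these samples.

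IL-18 is made as an inactive precursor that caspase-1, the protease of the inflammasome, cuts to its active form. Intestinal epithelium is a well-known source, and macrophages make it as well. Il18r1 encodes the chain that binds the cytokine, and Il18rap encodes the accessory chain that is needed to signal. Both chains carry an intracellular TIR domain that recruits Myd88 and IRAK kinases and leads to NF-kB. Together with IL-12, IL-18 drives T helper 1 cells and natural killer cells to make interferon gamma.

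Il18r1 and Il18rap are next to each other on chromosome 1 in the RefSeq annotation (GRCm38.p6), and Il18 lies on chromosome 9. The 250 bases before the annotated start of each gene are shown because the neighbouring receptor genes both had a higher signal in the IL10-labelled mice, while Il18 did not. All 3 stretches are on the plus strand, credited to RefSeq, and are given 5′ to 3′.
Il18, chr9:50554450-50554699: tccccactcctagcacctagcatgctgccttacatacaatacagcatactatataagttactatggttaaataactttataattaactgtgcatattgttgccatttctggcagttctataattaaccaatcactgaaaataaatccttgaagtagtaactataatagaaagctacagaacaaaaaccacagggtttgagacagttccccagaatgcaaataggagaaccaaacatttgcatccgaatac
Il18r1, chr1:40465302-40465551: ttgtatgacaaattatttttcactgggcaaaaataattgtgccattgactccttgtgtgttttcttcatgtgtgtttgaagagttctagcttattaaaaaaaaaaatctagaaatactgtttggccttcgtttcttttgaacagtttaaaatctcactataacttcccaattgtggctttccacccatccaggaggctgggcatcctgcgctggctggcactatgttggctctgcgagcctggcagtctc
Il18rap, chr1:40515112-40515361: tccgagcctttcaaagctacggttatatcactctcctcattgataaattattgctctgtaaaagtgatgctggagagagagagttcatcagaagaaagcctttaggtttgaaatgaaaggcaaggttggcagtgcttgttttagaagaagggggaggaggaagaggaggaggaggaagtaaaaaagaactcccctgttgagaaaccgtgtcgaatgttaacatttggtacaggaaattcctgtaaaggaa
Motifs were searched on both strands. None of these stretches held TTCNNNGAA (the gamma-activated site), an interferon regulatory factor element (GAAA, any 2 bases, GAAA) or an NF-kB site in loose form (GGG, any 5 bases, CC), so no base is in capitals. A further annotated start of Il18r1, downstream of the first, had 2 matches to TTCNNNGAA in its 250 bases, TTCTGGGAA beginning 219 bases and TTCCCAGAA beginning 152 bases before that start. That window also held 1 match to the NF-kB form. Of 32841 RefSeq promoter windows of the same length, 7.02% held the gamma-activated site, 2.98% the interferon regulatory factor element and 45.8% the NF-kB form. A match is a description of letters and not evidence of binding.

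Il10, the gene of the genotype label, ran against that label, as its signal was 24.9 to 74.4 in the IL10-labelled mice and at most 1.02 in the C57-labelled mice. Where on the transcript the probe binds is not stated, and if it binds outside a deletion it cannot check the label. If the genotype labels were exchanged, every genotype difference given here would change direction. Neither was tested, and the groups are called as labelled throughout. Counts above background were 541733 to 717454 in IL10_STAT, 398625 to 506141 in IL10_control, 191012 to 276579 in WT_STAT and 146691 to 365850 in WT_control. Summed signal was 504724 to 551302, 559775 to 645272, 270388 to 379011 and 213509 to 341946 in the same order of groups. The panel as a whole was thus brighter in the IL10-labelled mice. The median of the 457 genes tested was higher in them by 1.01 (log2) under the control inoculum and by 0.50 under STAT. The corresponding medians were -0.22 for IL10_STAT minus IL10_control, 0.24 for WT_STAT minus WT_control and -0.48 for the difference between these inoculum effects. Whether this shift belongs to the tissue or to the scaling of the samples was not tested. The genotype differences of the 3 genes are therefore also given with every sample centred on its median, as are the counts of a list of pathway genes.

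Il18, the cytokine, had its lowest signal in the ileum of IL10_STAT mice. Its normalized signal was 224, 177 and 186 in IL10_STAT (mean 196 ± 24.7 SD, n = 3) and 416, 364 and 497 in IL10_control (426 ± 67.04 SD, n = 3). It was 522, 400.4 and 673 in WT_STAT (532 ± 137 SD, n = 3) and 494, 488 and 440.3 in WT_control (474 ± 29.3 SD, n = 3). The order of the means was therefore WT_STAT, WT_control, IL10_control and IL10_STAT. Neighbours among the first 3 overlapped in their ranges, and only IL10_STAT lay apart from the rest, with all 3 mice below every other mouse. Il18 was singled out because of this low level, which was known from earlier results of these data, so its levels are a description and carry no test. Each mouse gave 177 to 546 Il18 counts above background, a counting error of 4.28% to 7.51% without that of the background. The coefficient of variation between mice was 12.6%, 15.8%, 25.7% and 6.18% in IL10_STAT, IL10_control, WT_STAT and WT_control.

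On the log2 scale, Il18 differed by -1.11 ± 0.22 (SE) between IL10_STAT and IL10_control, a 2.16-fold lower signal. The same inoculum contrast in C57-labelled mice was 0.14 ± 0.22, with overlapping groups. The difference between these effects was -1.25 ± 0.32. With samples centred on their medians these values became -0.84 ± 0.36, -0.24 ± 0.36 and -0.60 ± 0.50, so the inoculum difference within IL10-labelled mice kept its sign and the difference between the effects was smaller. In the whole panel, 21.2% of genes lay lower in every IL10_STAT mouse than in any IL10_control mouse, and this contrast chose Il18, so nothing is read from its place among them.

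Between genotype labels, Il18 ran against the panel. It differed by -1.41 ± 0.22 between IL10_STAT and WT_STAT (2.66-fold lower, groups not overlapping, as for 17.3% of genes tested) and by -0.16 ± 0.22 between IL10_control and WT_control, where the groups overlapped. Centred on the medians, these became -1.94 ± 0.36 and -1.34 ± 0.36. Relative to the other genes of the panel, Il18 therefore lay lower under both inocula in the IL10-labelled mice, while on the deposited scale the control inoculum showed little difference. Both contrasts share mice with the inoculum contrast that chose Il18. This is therefore a description, and nothing is read from the place of Il18 in the panel.

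**Figure D1:**
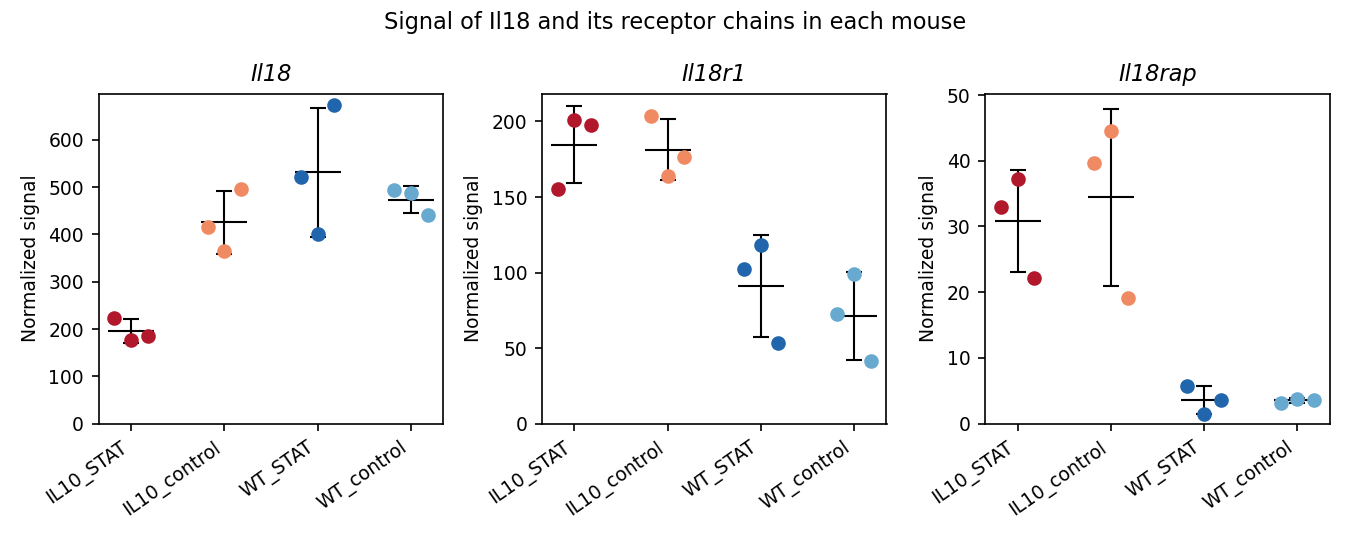
Normalized signal (vertical axis, linear, from 0) of Il18, Il18r1 and Il18rap in each of the 12 mice, by group. Points are mice, the long dash is the group mean and bars are ± 1 SD (n = 3); the 3 IL10_STAT mice have the lowest Il18, and all IL10-labelled mice lie above all C57-labelled mice for both receptor chains.

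RNA of whole tissue does not show whether fewer cells of a type or less RNA per cell gave a lower signal. The epithelial list had 4 of its 7 genes in the table, among them Pigr, the transporter of mucosal antibodies, and Ceacam1, an adhesion molecule. Its summed signal, mostly of Pigr and Ceacam1, was 62786 to 66301 in IL10_STAT, within the 49322 to 84271 of IL10_control. Nox1 of this list was higher in every IL10_STAT mouse (2012 to 2649) than in any IL10_control mouse (1564 to 1936). Pigr, Ceacam1 and Muc1 overlapped. The share of all genes that lay higher in this way is not given here. The macrophage list, with 6 of 8 genes in the table, was 1964 to 2641 in IL10_STAT and 2080.1 to 2745 in IL10_control, which overlap. Cd14 had the highest signal in that sum, with means of 1175 and 956. Single genes differed from the sum. Emr1, Cx3cr1, Cd163 and Marco were lower in every IL10_STAT mouse than in any IL10_control mouse, while Cd14 and Csf1r overlapped. The endothelium and stroma list (6 of 6 genes) was 2773 to 2997 in IL10_STAT and 3822 to 4534 in IL10_control, which do not overlap. Its gene of highest signal was Cxcl12, with means of 1433 and 2448. Cxcl12 and Pecam1 were lower in every IL10_STAT mouse, while Vcam1, Thy1, Cdh5 and Pdgfrb overlapped. In the whole panel, 21.2% of genes lay lower in this way. No gene of these lists was at 0 in all mice of either group. The part of these lists in the Il18 difference was not tested.

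Il18r1, the ligand-binding chain, had 2 levels, one for each genotype label. Its signal was 155, 201 and 198 in IL10_STAT (185 ± 25.4 SD) and 204, 164 and 177 in IL10_control (181 ± 20.2 SD). In C57-labelled mice it was 102, 118 and 53.1 in WT_STAT (91.2 ± 33.9 SD) and 72.8, 99.2 and 41.5 in WT_control (71.2 ± 28.9 SD, n = 3 in each group). Every IL10-labelled mouse lay above every C57-labelled mouse, and within a genotype label the groups overlapped. Of all genes tested, 47.3% lay higher in every IL10_STAT than in any WT_STAT mouse, and 56.0% in every IL10_control than in any WT_control mouse. The third mouse of WT_STAT and the third of WT_control had the lowest Il18r1 and also the lowest summed signal of their groups.

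Il18r1 rose in IL10_STAT relative to WT_STAT by 1.08 ± 0.35 (log2, SE; 2.11-fold, adjusted p = 0.0248 in limma's test). In IL10_control relative to WT_control it rose by 1.42 ± 0.35 (2.67-fold, adjusted p = 0.00485 in limma's test). These calls are common on this panel, where 40% and 53.6% of the 457 genes passed as higher and 11.6% and 3.94% as lower. The panel medians in the same contrasts were 0.50 and 1.01, both below the values of Il18r1. Centred on the medians, Il18r1 differed by 0.56 ± 0.23 (adjusted p = 0.0507, limma) and 0.25 ± 0.23 (0.326), which did not pass. After quantile normalization the values were 0.42 ± 0.23 and -0.02 ± 0.23, so that under the control inoculum the sign turned. Scaled on broadly expressed genes they were 1.457 ± 0.207 and 1.496 ± 0.207, which passed. The call under STAT was also lost without IL10_STAT 2 (adjusted p = 0.0739, limma), without IL10_STAT 3 (0.0727) or without WT_STAT 3 (0.0907).

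For the inoculum, Il18r1 did not pass in either genotype label. It differed by 0.02 ± 0.35 between IL10_STAT and IL10_control (95% interval -0.76 to 0.80, adjusted p = 0.989 in limma's test). Between WT_STAT and WT_control it differed by 0.36 ± 0.35 (-0.42 to 1.14, adjusted p = 0.715, limma). The difference between these effects was -0.34 ± 0.50 (-1.44 to 0.76, adjusted p = 0.750, limma). Centred on the medians, these 3 values were 0.30 ± 0.23, -0.010 ± 0.23 and 0.31 ± 0.32, and the signs of the WT_STAT minus WT_control value and of the difference between the effects turned. On the deposited scale, the interval of IL10_STAT minus IL10_control does not reach the -1.11 of Il18 in that contrast. This cannot test a difference between the genes, because that contrast chose Il18 and the error of its value is left out. In limma's test 0 of 457 genes passed in the IL10-labelled mice (at an unadjusted p under 0.05, 3 were higher and 28 lower), and 0.875% of genes passed in the C57-labelled mice.

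Il18rap, the accessory chain, was close to background in the C57-labelled mice. Its signal was 33.0, 37.2 and 22.2 in IL10_STAT (30.8 ± 7.76 SD) and 39.7, 44.5 and 19.1 in IL10_control (34.4 ± 13.5 SD). In WT_STAT it was 5.66, 1.46 and 3.54 (3.55 ± 2.10 SD), and in WT_control 3.17, 3.75 and 3.64 (3.52 ± 0.310 SD, n = 3 in each group). These are 27 to 47 counts above background in IL10_STAT, 13 to 40 in IL10_control, and only 1 to 4 in each C57-labelled mouse. Every IL10-labelled mouse lay above every C57-labelled mouse. The lowest of the IL10-labelled mice was IL10_control 3, at 13 counts with a counting error of at least 27.5%.

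The fitted log2 difference of Il18rap was 2.89 ± 0.40 between IL10_STAT and WT_STAT and also 2.89 ± 0.40 between IL10_control and WT_control (adjusted p = 0.000202 and 9.57e-05 in limma's test). With the C57-labelled mice at values this low, the fold is better given as a bound. With signals under 20 set to 20, Il18rap was at least 1.48-fold higher in IL10_STAT than in WT_STAT and 1.61-fold higher in IL10_control than in WT_control. The second value is no strict bound, because IL10_control 3, at 19.1, was raised to 20 too. With signals raised in this way neither call passed (adjusted p = 0.120 and 0.0540, limma). Il18rap reached a signal of 20 in only 5 of the 12 mice, all IL10-labelled, so it entered the test through the group in which it was high, and the calls are not read as support. Centred on the medians it differed by 2.36 ± 0.39 and 1.72 ± 0.39 (adjusted p = 0.000549 and 0.00255, limma). After quantile normalization it differed by 0.73 ± 0.47 and 0.45 ± 0.47 and did not pass. Within genotype labels, Il18rap differed by -0.10 ± 0.40 between IL10_STAT and IL10_control (95% interval -0.98 to 0.77) and by -0.10 ± 0.40 between WT_STAT and WT_control (-0.97 to 0.77), with adjusted p = 0.966 and 0.978 in limma's test. The difference between these effects had an interval of -1.23 to 1.23 (adjusted p = 0.998, limma).

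**Figure D2:**
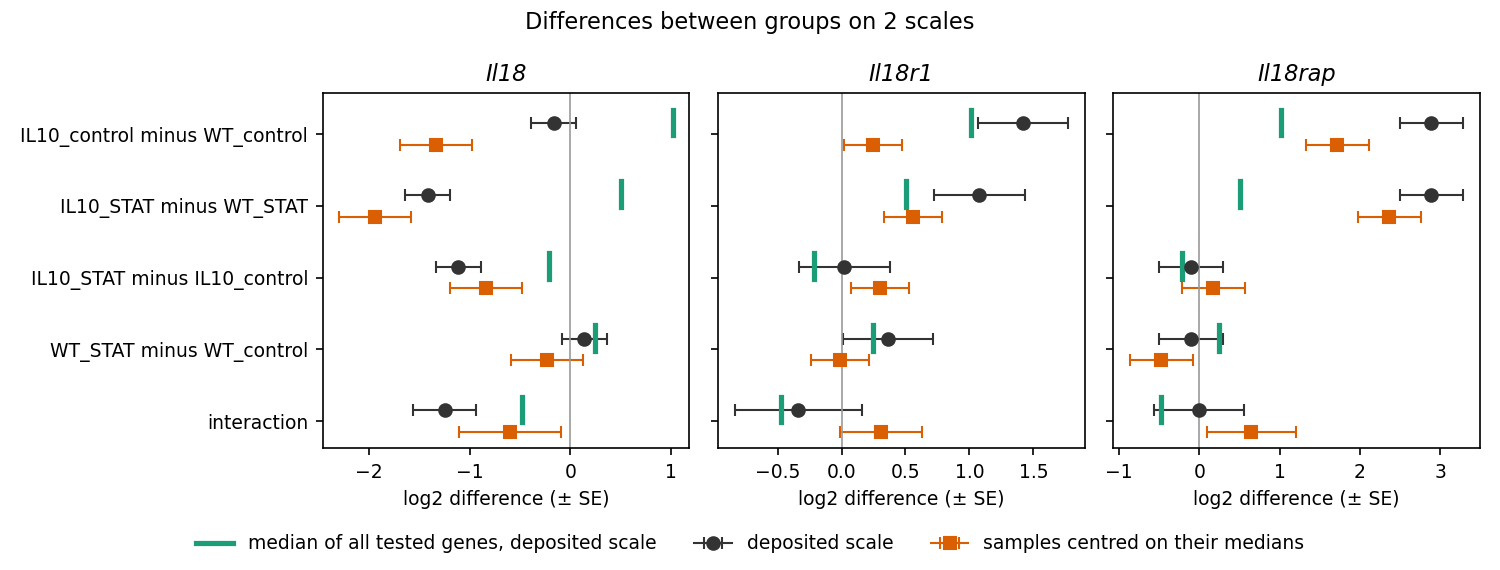
Log2 differences (horizontal axis, ± SE) of the 3 genes in the 4 group contrasts and the interaction, on the deposited scale (circles) and with samples centred on their medians (squares); vertical ticks mark the median of all 457 genes tested on the deposited scale. In both genotype contrasts Il18r1 and Il18rap lie above the panel median and Il18 below it.

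Markers of several immune cell types were higher in the IL10-labelled mice, as the receptor chains were. The T cell list (10 of 10 genes in the table, led by Lck, Cd3d, Cd4 and Cd3e) had a summed signal of 1134 to 1448 in IL10_STAT against 460.1 to 614 in WT_STAT. It was 1496 to 2101 in IL10_control against 306 to 478 in WT_control. The cytotoxic and NK list (7 of 9 genes, led by Gzma, Klrd1, Klrk1 and Klrc1) was 706 to 820.2 in IL10_STAT against 168 to 260.04 in WT_STAT, and 922 to 1518 in IL10_control against 152 to 228 in WT_control. Within the IL10-labelled mice both lists were lower in every IL10_STAT mouse than in any IL10_control mouse, while Il18r1 and Il18rap overlapped between these groups. All 9 tested T cell genes and all 5 tested cytotoxic and NK genes passed as higher in both genotype contrasts (limma, deposited scale). Of all genes tested, 40% under STAT and 53.6% under the control inoculum passed as higher. Cd8a, Cd5, Cd6 and Gzmb were under 20 in every C57-labelled mouse and entered the test through the IL10-labelled mice. These counts are therefore not read as support. No gene of these 2 lists was at 0 in all mice of a group. The neutrophil list (4 of 4 genes) differed most among the lists, with medians of 6.70 under STAT and 5.98 under the control inoculum on the log2 scale, against 1.34 and 2.30 for the T cell list. Its summed signal was 1818 to 7408 in IL10_STAT against 2.83 to 48.2 in WT_STAT, and 325 to 29052 in IL10_control against 13.98 to 20.4 in WT_control, where S100a9 was at 0. Csf3r, Cxcr2 and S100a9 were under 20 in every C57-labelled mouse, so the neutrophil medians give no bound on a fold. Of the macrophage list, 3 of 6 tested genes passed as higher and 1 as lower under STAT, and 5 as higher under the control inoculum. Marco among them was under 20 in every C57-labelled mouse and entered the test through the IL10-labelled mice. The B cell list (5 of 5 genes, 4 tested) had medians of 0.57 under STAT and 2.37 under the control inoculum, with 3 genes passing as higher in the control contrast. The part of these cells in the receptor signal was not tested.

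Along chromosome 1, the annotation places Il1r2, Il1r1, Il1rl2, Il1rl1, Il18r1 and Il18rap in this order with no other protein-coding gene between them. Il1r2, the decoy receptor of IL-1, had a signal of 90.7 to 174 in IL10_STAT against 0 to 8.78 in WT_STAT, at least 5.82-fold higher with signals under 20 set to 20. In IL10_control it had 32.1 to 195 against 2.26 to 15.3 in WT_control, at least 4.89-fold higher. Like Il18rap, Il1r2 reached 20 only in IL10-labelled mice and entered the test through them, so its call is not read as support. Il1rl1, the receptor of IL-33, rose by 2.39 ± 0.44 and 2.22 ± 0.44 (log2; adjusted p = 0.00113 and 0.00111, limma), and under median centring by 1.87 and 1.05, of which the second did not pass (0.0601). Il1r1, the signalling receptor of IL-1, differed by -0.42 ± 0.33 and 0.09 ± 0.33, and Il1rl2, the receptor of IL-36, by -0.62 ± 0.40 and 0.33 ± 0.40, and neither passed. Under median centring Il1r1 fell by 0.95 and 1.08 (adjusted p = 0.00633 and 0.00221, limma), and Il1rl2 fell by 1.14 (0.0176) and differed by -0.84 (0.0520). Of the 4 neighbours that reached 20 under both genotype labels, Il1rl1 and Il18r1 passed as higher in both contrasts on the deposited scale, and Il1r1 and Il1rl2 in neither. Of all genes tested, 40% passed as higher under STAT and 53.6% under the control inoculum, so nothing particular to these neighbours is read from this.

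**Figure D3:**
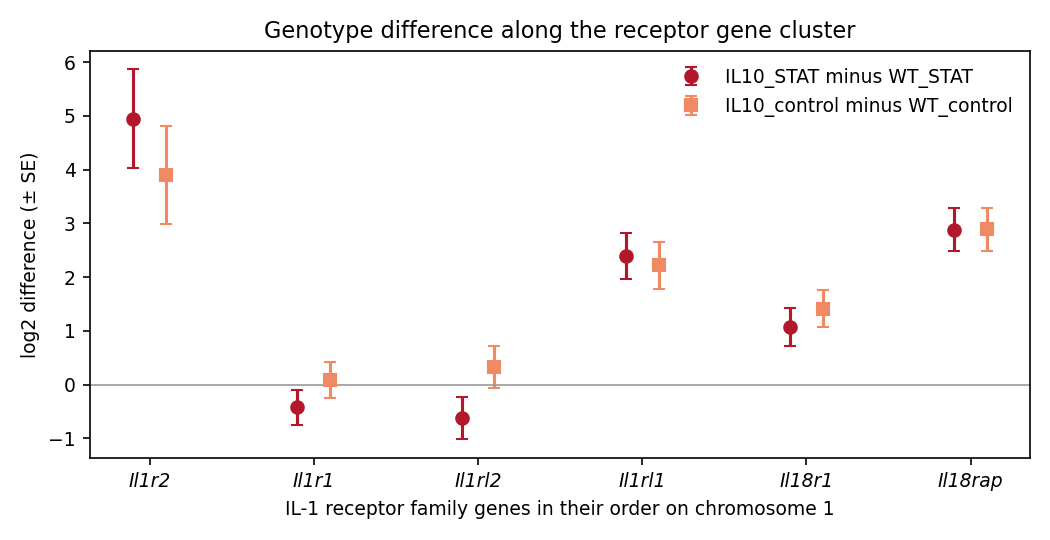
Log2 difference (vertical axis, ± SE, deposited scale) between IL10-labelled and C57-labelled mice for 6 IL-1 receptor family genes in their order on chromosome 1, under the STAT inoculum (circles) and the control inoculum (squares). Il1r1 and Il1rl2 lie between -0.62 and 0.33, and the 4 other genes lie above 1; Il1r2 and Il18rap are under 20 in all C57-labelled mice, so their fitted values are no bound.

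Of a list of 48 further genes of the IL-18 pathway, 39 were in the table and 34 were tested. Under STAT, 13 of 34 rose in IL10_STAT relative to WT_STAT and 0 fell, with a median of 0.18 against 0.50 for all genes tested. Under the control inoculum, 15 of 34 rose in IL10_control relative to WT_control and 0 fell, with a median of 0.38 against 1.01. Of all genes tested, 40% and 53.6% passed as higher. Centred on the medians, 10 rose and 11 fell under STAT, and 7 rose and 19 fell under the control inoculum, so the calls of this list depend on the scale. Of the 34 tested genes, 8 reached a signal of 20 only in IL10-labelled mice and entered the test through them (Il12a, Il12b, Il12rb1, Il12rb2, Gzmb, Fasl, Il1a and Il1r2), so the counts of higher genes are not read as support.

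The enzymes that cut the precursor differed from each other. Casp1, the caspase of the inflammasome, had a signal of 4076 ± 441 SD in IL10_STAT, 3721 ± 643 in IL10_control, 3800.5 ± 228 in WT_STAT and 4174 ± 1110 in WT_control. It passed in no contrast on the deposited scale, but under median centring it fell by 1.31 in IL10_control relative to WT_control (adjusted p = 0.00102, limma). It differed by 0.14 ± 0.23 between IL10_STAT and IL10_control, the contrast in which Il18 was 2.16-fold lower. Casp8, which can also cut the precursor, rose by 0.91 ± 0.20 in IL10_STAT relative to WT_STAT and by 0.90 ± 0.20 in IL10_control relative to WT_control (adjusted p = 0.00364 and 0.00283, limma). Median centring left it at 0.39 and -0.27, so the second sign turned. Sigirr, a receptor that restrains IL-18 and IL-1 signalling, had 429 ± 31.6 in IL10_STAT, 493 ± 111 in IL10_control, 595 ± 107 in WT_STAT and 593 ± 156 in WT_control, and did not pass on the deposited scale. Under median centring Sigirr fell by 0.98 in IL10_STAT relative to WT_STAT and by 1.43 in IL10_control relative to WT_control (adjusted p = 0.00512 and 0.000482, limma).

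What the adaptor and kinase genes did depended on the scale. On the deposited scale, 0 of 13 tested members passed under STAT in limma's test (0 also at an unadjusted p under 0.05) and 1 passed as higher under the control inoculum, against 40% and 53.6% of all genes tested. Centred on the medians, 7 of 13 fell under STAT and 13 of 13 under the control inoculum. That gene was Nfkbia, the NF-kB inhibitor, chosen here after its values were seen, which rose by 0.66 ± 0.23 (adjusted p = 0.0304, limma) while under median centring it fell by 0.51 (adjusted p = 0.0208, limma). Irak4, the kinase that acts first below Myd88, differed by 0.24 ± 0.24 and 0.27 ± 0.24 between genotype labels under STAT and control, and by -0.28 and -0.90 with centring, of which the second passed (adjusted p = 0.00240, limma). Tollip, an adaptor that dampens this route, differed by -0.21 ± 0.27 and -0.11 ± 0.27, and with centring it fell by 0.73 and 1.28 (adjusted p = 0.0112 and 0.000424, limma).

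Of 7 tested genes of the IL-12 partner route, 4 passed as higher under STAT and 5 under the control inoculum on the deposited scale, against 40% and 53.6% of all genes tested. With centring, 3 of 7 were higher and 0 lower under STAT, and 3 were higher and 2 lower under the control inoculum. Stat4, the transcription factor below the IL-12 receptor, had 94.1 ± 8.29 SD in IL10_STAT against 37.1 ± 15.9 in WT_STAT, and 111 ± 39.99 in IL10_control against 22.1 ± 7.23 in WT_control. It rose by 1.42 ± 0.39 and 2.26 ± 0.39 (adjusted p = 0.0108 and 0.000490, limma) and kept its sign under each scaling, although it did not pass after quantile normalization under the control inoculum. Il12b, a subunit of IL-12 and IL-23, had 58.8 ± 18.7 in IL10_STAT against 3.55 ± 2.10 in WT_STAT, at least 2.75-fold higher. In IL10_control it had 50.9 ± 10.04 against 3.89 ± 4.98 in WT_control, at least 2.44-fold higher. With low signals raised as for Il18rap, the receptor chain Il12rb2 was 1.25-fold and 1.24-fold higher in the same contrasts. Il12rb1 was 1.08-fold and 1.18-fold higher. These values are no bounds, because low values in IL10_STAT and IL10_control were raised too. The lowest were 15.6 in IL10_STAT and 14.8 in IL10_control for Il12rb2, and 13.3 and 15.6 for Il12rb1. Under quantile normalization the values of Il12rb1 and Il12rb2 turned below 0 without passing, and with centring Il12rb1 did not pass in either contrast (adjusted p = 0.140 and 0.0775, limma). Il12a, the other subunit of IL-12, differed by 0.67 ± 0.63 under STAT (adjusted p = 0.392, limma) and 1.78 ± 0.63 under the control inoculum (0.0297), where it did not pass with centring (0.398). The kinases Jak2 (0.17 ± 0.26 and 0.20 ± 0.26) and Tyk2 (-0.17 ± 0.38 and 0.30 ± 0.38) passed in neither contrast, and with centring under the control inoculum they fell by 0.97 and 0.87 (adjusted p = 0.00179 and 0.0190, limma).

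Interferon gamma, the main product of IL-18 signalling, was near the lower limit. Ifng had a signal of 23.9 ± 11.9 SD in IL10_STAT, 9.39 ± 3.16 in IL10_control and 0.486 ± 0.841 in WT_STAT, and was at 0 in each WT_control mouse. It did not reach 20 in enough mice to be tested. Tbx21, the T helper 1 transcription factor, was at 0 in each IL10_STAT and WT_control mouse and had 0.564 to 23.5 in IL10_control and 0 to 7.93 in WT_STAT. Gzmb, the granule protease of cytotoxic cells, had 35.5 ± 0.580 in IL10_STAT against 3.68 ± 5.77 in WT_STAT, at least 1.74-fold higher. In IL10_control it had 66.5 ± 28.9 against 8.51 ± 7.39 in WT_control, at least 2.98-fold higher. Fasl, the death ligand of activated lymphocytes, was at least 1.24-fold higher in IL10_STAT than in WT_STAT. With signals under 20 set to 20, it was 1.18-fold higher in IL10_control than in WT_control. That value is no bound, because IL10_control values under 20 (lowest 17.7) were raised too. In the control contrast Fasl did not pass with centring (adjusted p = 0.119, limma).

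Among the sister ligands of Il18, Il1b and its antagonist Il1rn were higher where Il18 was not. Il1b rose by 5.71 ± 0.87 in IL10_STAT relative to WT_STAT and by 5.36 ± 0.87 in IL10_control relative to WT_control (adjusted p = 0.000384 and 0.000325, limma). Its signal was only 9.21 to 27.4 in C57-labelled mice, and it ranged from 106 to 1357 in IL10_control. With signals under 20 set to 20, Il1b was at least 48.9-fold and 25.6-fold higher. Calls as higher were common in these contrasts, at 40% and 53.6% of all genes tested. Il1rn rose by 2.25 ± 0.33 and 1.29 ± 0.33 (adjusted p = 0.000306 and 0.00543, limma), and Il33, the ligand of Il1rl1, by 0.92 ± 0.32 and 1.46 ± 0.32 (0.0331 and 0.00233). Under median centring Il33 did not pass in either contrast, and Il1rn did not under the control inoculum. For the inoculum, 0 of the 34 pathway genes passed in limma's test in IL10-labelled mice, in C57-labelled mice or in the difference between them. At an unadjusted p under 0.05 these contrasts gave 1, 0 and 0 genes. The 1 gene was Il1rn, which differed by 0.93 ± 0.33 between IL10_STAT and IL10_control (adjusted p = 0.624, limma). Of all 457 genes tested, the same contrasts gave 3 higher and 28 lower, 77 higher and 2 lower, and 1 higher and 96 lower at that level.

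**Figure D4:**
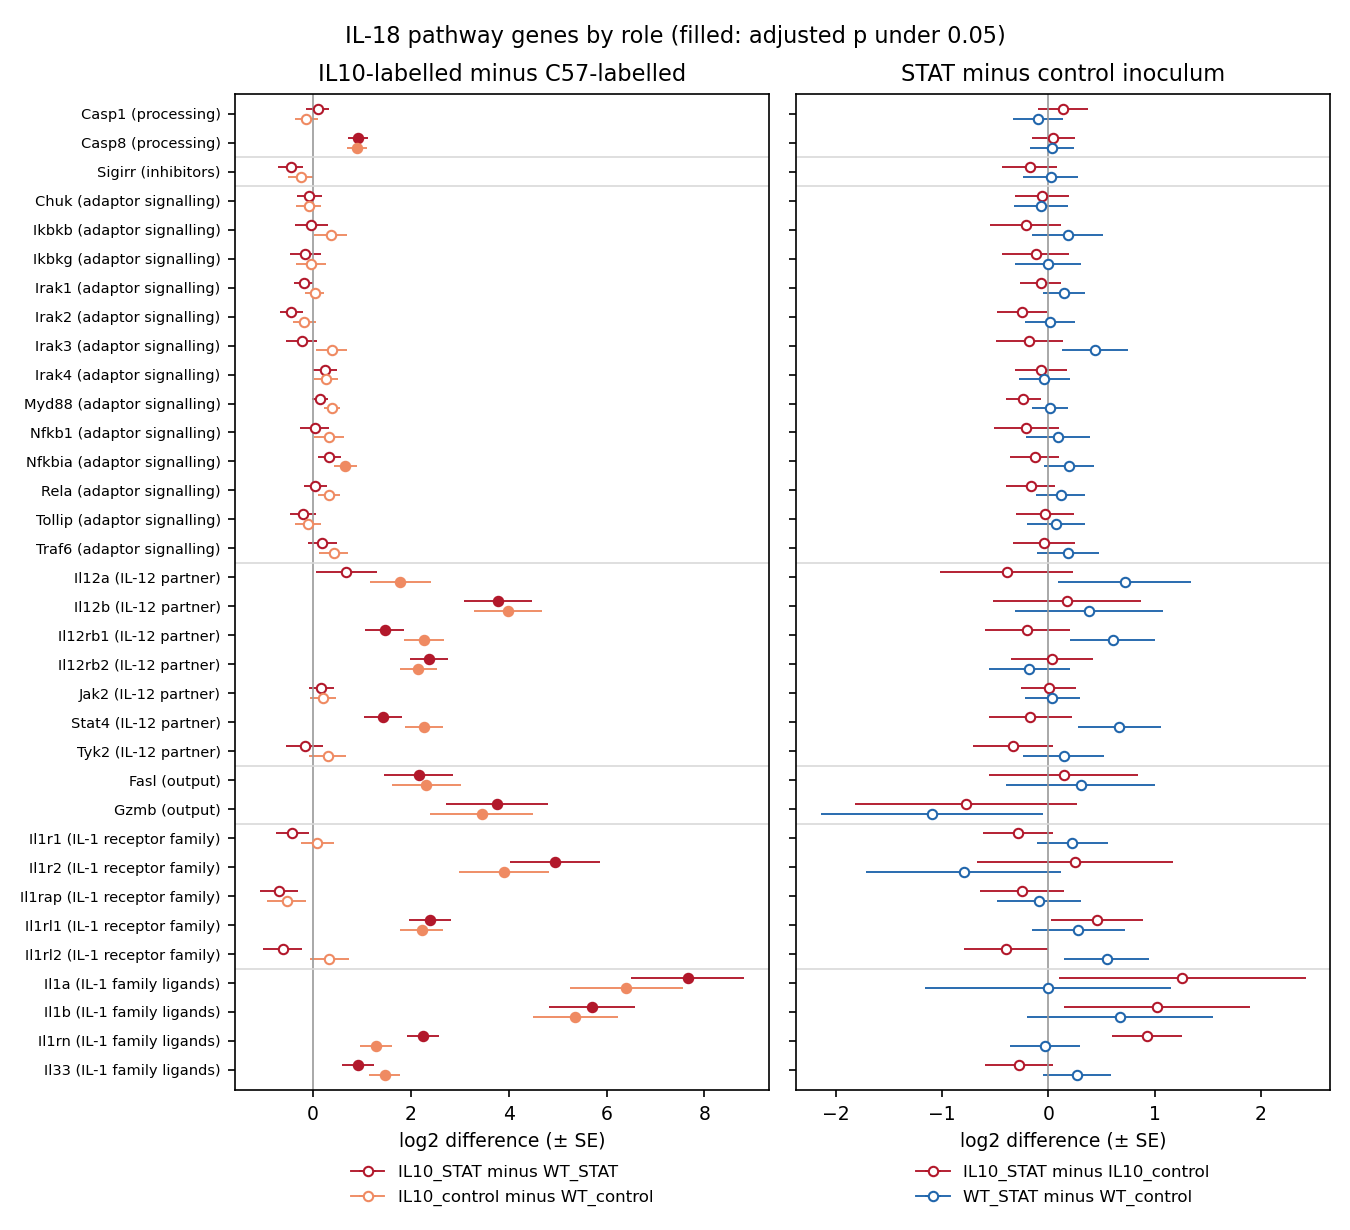
Log2 differences (horizontal axes, ± SE, deposited scale) of the 34 tested genes of the IL-18 pathway list, grouped by role, between genotype labels (left) and between inocula (right). Filled points passed at an adjusted p under 0.05; there are 13 and 15 filled points on the left under STAT and control, and 0 on the right.

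The genes with profiles most like each member were found by the root mean square difference between log2 profiles over the 12 mice, each profile centred on its own mean. For Il18, whose own profile had a root mean square of 0.59, the nearest were Tgfb3, a TGF-beta ligand (0.35), Hfe, a regulator of iron uptake (0.38), and Cradd, a death-domain adaptor (0.38). Mr1, which presents vitamin B metabolites (0.41), and Fcgrt, the neonatal Fc receptor (0.41), followed, against a median of 1.002 over all genes tested. Like Il18, each of these genes had its lowest mean in IL10_STAT. The ranking used the same mice in which Il18 was singled out for its low level, so this is not read as support. Tgfb3 and Mr1 had 63.3 ± 4.71 and 36.7 ± 6.89 SD in IL10_STAT, and 102 ± 18.2 and 66.8 ± 7.58 in IL10_control. In WT_STAT they had 165 ± 33.0 and 119 ± 30.2, and in WT_control 131 ± 36.1 and 78.7 ± 16.1.

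For Il18r1, whose profile had a root mean square of 0.74, the nearest were Jak3, a kinase of cytokine receptors (0.20), Il4ra, the IL-4 receptor (0.21), and Tnfsf10, the death ligand TRAIL (0.25). H2-K1, an MHC class I heavy chain (0.26), and C1s, a complement protease (0.27), came next, against a median of 0.71. For Il18rap, with a root mean square of 1.51, they were Il12rb2 (0.51), Socs1, an inhibitor of cytokine signalling (0.52), C6, a complement component (0.53), Plaur, the urokinase receptor (0.53), and H2-Ab1, an MHC class II chain (0.54), against a median of 1.31. A shift in brightness shared by all genes of a mouse cancels between log2 profiles, except for what the pseudocount changes at low signal. With a pseudocount of 10, 3 of the 5 nearest genes of Il18r1 and 1 of the 5 of Il18rap were kept.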

How the data were processed

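The deposited table gave a normalized linear signal per gene and sample; how the authors normalized it and with which software is not stated. Per the labels' protocols, RNA was taken up in TRIzol and cleaned on RNeasy columns. In each sample 100% of positive values lay whole steps above the lowest one, within 0.01 steps, so counts above background were taken as signal divided by the step. Counting errors were taken from these counts and cover counting only. They leave out the counts of the background itself, so they are understated, most at low counts. Groups came from the description label of each sample, and 0 columns belonged to no sample.

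A gene was tested where 3 or more samples reached a signal of 20 (457 of 547, 90 left out). Values were log2(signal + 1), fitted with limma 3.58.1 in R 4.3.3 (lmFit and eBayes) as 4 group means. Benjamini-Hochberg adjustment ran over 457 genes, with a threshold of 0.05. The script was tested on simulated data. A difference of log2(signal + 1) understates changes of low genes. An exact permutation test of 3 against 3 mice cannot go below 0.1 and was not used.

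The members and lists were chosen with earlier results of these data known. Named genes were the members, Il10, the 5 nearest profiles of each member and up to 4 genes of highest signal in other lists. The processing, inhibitor, IL-12 and IL-1 receptor genes of the pathway list were named too, as were Ifng, Tbx21, Gzmb and Fasl of its output genes. The output genes Eomes, Prf1 and Csf2 did not reach 20 in enough mice to be tested and are not described. Further marker genes are named where they limit the reading of a list's sum or count. Of the pathway list, 9 genes are not analysed here. Alternatives were 3 other scalings (1 of them on 11 broadly expressed genes), a pseudocount of 10, values under 20 raised to 20, no filter, a filter at 40, only the groups of the contrast, array weights, and leaving out each mouse.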

Additional observations from a re-analysis of the deposited data

How the results depend on the processing

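No paired analysis was possible because the labels give no replicate numbers that groups share. The signs of the Il18 differences held under all settings in IL10_STAT minus IL10_control and IL10_STAT minus WT_STAT. Centring each sample on its median gave Il18 differences of -0.84 (IL10_STAT minus IL10_control), -1.94 (IL10_STAT minus WT_STAT), -1.34 (IL10_control minus WT_control), -0.24 (WT_STAT minus WT_control) and -0.60 (interaction). Quantile normalization gave -1.97, -1.09 and -0.88 for IL10_STAT minus WT_STAT, IL10_control minus WT_control and the interaction. Broad-gene scaling gave -1.04 and -0.95 for IL10_STAT minus WT_STAT and the interaction, and array weights gave -0.12 for WT_STAT minus WT_control. Il18r1 lost its calls under centring (0.56 under STAT, 0.25 under control) and quantile normalization (0.42 and -0.022). Without 1 mouse its IL10_STAT minus WT_STAT value was 0.73 to 1.30. Its values that passed no test turned sign in WT_STAT minus WT_control (-0.010 centred, -0.11 quantile), in the interaction (0.31 centred, 0.44 quantile, -0.68 to 0.0010 without 1 mouse) and in IL10_STAT minus IL10_control (-0.0020 with array weights, -0.047 to 0.14 without 1 mouse). Il18rap lost its calls under quantile normalization (0.73 under STAT, 0.45 under control) and with values raised to 20 (0.57 and 0.69). Its IL10_STAT minus IL10_control value turned to 0.17 centred, 0.051 quantile and 0.10 on broad genes, and was -0.47 to 0.12 without 1 mouse. Its interaction turned to 0.65, 0.28 and 0.30 under the same scalings and was -0.39 to 0.33 without 1 mouse, and its WT_STAT minus WT_control value was -0.43 to 0.28 without 1 mouse. Il18rap could not be tested with the filter at 40. With values raised to 20, it gave no WT_STAT minus WT_control value. Pathway genes called higher numbered 7 (centred) and 5 (quantile) under control, and 8 (quantile) and 22 (broad genes) under STAT. Those called lower numbered 19 and 19 under control, and 11 and 15 under STAT. With array weights 1 was lower under control, 6 under STAT and 1 in the interaction, and 1 was higher in WT_STAT minus WT_control. Without 1 mouse, 0 to 1 was lower under control. A pseudocount of 10 kept 3 of the 5 genes nearest to Il18r1 and 1 of the 5 nearest to Il18rap. The cause of these changes was not tested. Low counts of Il18rap in C57-labelled mice limit its fold.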
